A study of Mus musculus with 6 samples.

Results

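A set of 10 genes that macrophages of the splenic red pulp use to recycle iron and clear dying cells was examined in spleen RNA: the transcription factor gene Spic, the haem and iron genes Hmox1 and Slc40a1, the haemoglobin scavenger receptor gene Cd163, the adhesion gene Vcam1, the complement genes C1qa, C1qb and C1qc, and the receptor genes Mertk and Axl. They were taken by name from the 44794 loci with a gene name, and all 10 were found. Where a name stood at more than 1 locus, the locus of highest mean was used, which applied only to Mertk. RNA sequencing covered 6 spleen samples, 3 from B6.Sle1b mice and 3 from Sle1b.IFNγR-/- mice. B6.Sle1b is an autoimmune-prone C57BL/6 line that carries the lupus susceptibility interval Sle1b, and Sle1b.IFNγR-/- carries the same interval and lacks the interferon-γ receptor. Both groups received imiquimod, which activates the single-stranded RNA receptor TLR7, 3 times a week for 4 weeks, so there was no group without imiquimod and none without Sle1b. The labels give neither the age of the mice nor the receptor chain that was disrupted, and they leave unsaid whether samples are from separate mice. The p-values thus reflect only the spread between these samples, which may be technical. The comparison asks what the loss of interferon-γ signalling does to spleen transcripts in TLR7-driven lupus.

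Red pulp macrophages engulf aged red blood cells. Haem released from haemoglobin induces Spic, which directs their development. Haem oxygenase-1 (Hmox1) splits haem and frees its iron, and ferroportin (Slc40a1) is the membrane exporter through which that iron leaves the cell. The C1q chains form the recognition protein of the classical complement pathway, which binds immune complexes and dying cells. C1q is made largely by macrophages, and its absence is known to predispose to lupus. Mertk and Axl are TAM receptor kinases, which bind dying cells through the bridging proteins Gas6 and protein S and restrain inflammation in macrophages. Interferon-γ is a main activator of macrophages.

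Values are scaled fragment counts: the authors counted fragments at each gene locus and put the libraries on a common scale by quartile. The libraries held 4394283 to 6349836 fragments, and the 10 genes were each seen with 16 to 553 fragments in a library. Counting error is thus part of the spread. In its lowest library Spic had 16 fragments, C1qc 20, Mertk 21, C1qb 23 and Cd163 25. B6.Sle1b replicate 1 stood apart. Its level of 29 ribosomal protein genes, relative to the geometric mean over the libraries, was 3.05, against 0.721 and 0.985 in B6.Sle1b replicates 2 and 3 and 0.746 to 0.938 in Sle1b.IFNγR-/-. It also had 27.0% of its signal in loci with a gene name, against 17.5% to 19.95% in the others. The level of erythroid markers, as a median log2 value centred on the mean of the libraries, was 1.68 there, -1.18 and -0.45 in replicates 2 and 3, and -0.21 to 0.34 in Sle1b.IFNγR-/-. Differences of the 10 genes are therefore given with and without that library. Ifngr1, the ligand-binding chain of the receptor, lay at 59.9 ± 23.7 in B6.Sle1b against 29.7 ± 12.2 in Sle1b.IFNγR-/- (SD, n = 3 each), with overlapping ranges, and Ifngr2 at 11.0 ± 3.09 and 6.72 ± 2.95. A disrupted gene can still be transcribed, and the altered chain is not named, so the genotype labels could not be checked from these values.

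Adgre1, Csf1r and Spi1, genes linked to macrophages, were detected in every library, which in whole spleen does not by itself show a cell type. Adgre1, which encodes the macrophage surface marker F4/80, lay at 130, 78.1 and 76.9 in B6.Sle1b against 90.9, 88.8 and 95.8 in Sle1b.IFNγR-/-, and it differed by -0.0062 (log2) with all libraries and by 0.24 when B6.Sle1b replicate 1 was left out. Csf1r, the receptor for macrophage colony-stimulating factor, lay between 45.2 and 238 over the 6 libraries. Spi1, the gene for the transcription factor PU.1, lay between 86.2 and 117 in 5 libraries and at 130 in B6.Sle1b replicate 1. The differences of Csf1r and Spi1 were -0.30 and -0.11, or 0.27 and 0.018 without that library. Of 34 red pulp macrophage identity genes matched, 30 reached the mean of 10 needed for the test. None of the 34 was listed at 0 in all libraries. Differences were negative for 25 and positive for 5, while 58.1% of all named loci tested were negative. The ribosomal protein genes leaned the same way, with 25 negative and 2 positive. The median of the identity genes was -0.34, or -0.012 without B6.Sle1b replicate 1. In whole spleen, fewer cells of a type and less RNA per cell cannot be told apart.

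No gene of the 10 differed between the genotypes by the test. Log2 differences, Sle1b.IFNγR-/- minus B6.Sle1b, ran from -0.72 for C1qc to 0.82 for Spic on the log2(value + 1) scale, which understates the change of low genes. All 10 had a limma Benjamini-Hochberg adjusted p of 0.99976 over the 19227 named loci tested, and 0 of the 10 had an unadjusted p under 0.05. Over all named loci 0.00% passed the adjusted threshold of 0.05, and 3.10% had an unadjusted p under 0.05. Of the 10 genes 4 had negative and 6 positive differences, with a median of 0.018, against a median of -0.083 over all named loci, of which 58.1% were negative. The groups did not overlap in 1 of the 10, C1qa, where all Sle1b.IFNγR-/- libraries were lower; 5.19% of named loci were separated in that direction and 3.51% in the other.

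**Figure D1:**
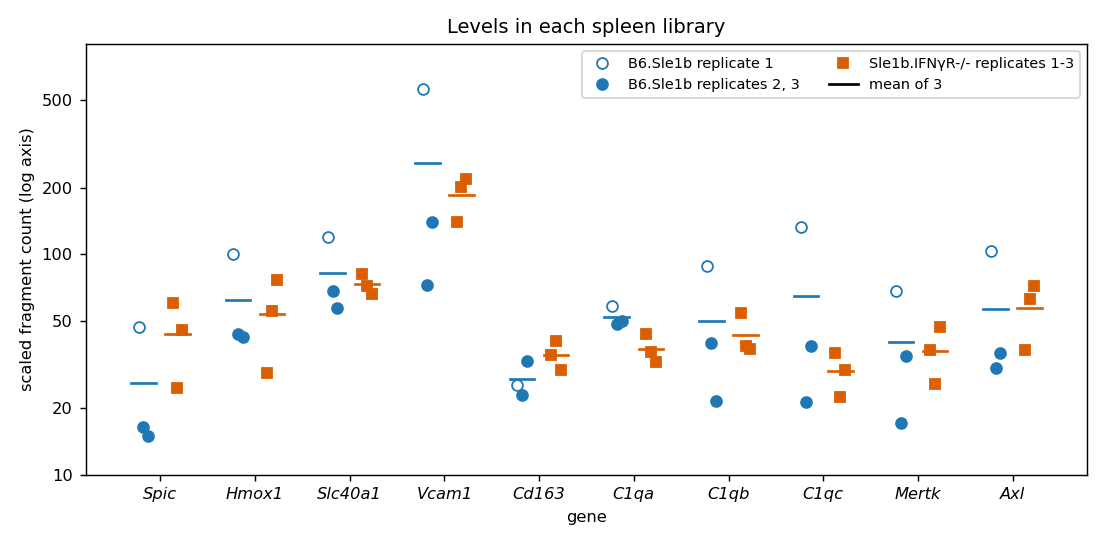
Scaled fragment count of each gene in each library, on a log axis. Circles are B6.Sle1b libraries (open for replicate 1), squares Sle1b.IFNγR-/- libraries, and bars the means of 3. B6.Sle1b replicate 1 is the highest of all 6 libraries for Hmox1, Slc40a1, Vcam1, C1qa, C1qb, C1qc, Mertk and Axl, but not for Spic or Cd163, and the groups are separate only for C1qa.

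Spic (chromosome 10, 88674772 to 88685015, minus strand, GRCm38) was measured at 46.9, 16.4 and 15.0 in B6.Sle1b replicates 1 to 3 and 60.3, 24.7 and 45.5 in Sle1b.IFNγR-/- replicates 1 to 3. Replicates 2 and 3 of B6.Sle1b were the 2 lowest libraries, while replicate 1 lay inside the range of the other genotype, so the groups overlapped. The difference was 0.82 (SE 0.48, 95% interval -0.22 to 1.85), the highest of the 10 genes. Without B6.Sle1b replicate 1 it was 1.33 (SE 0.43, limma unadjusted p = 0.0050, adjusted p = 0.993), and the groups no longer overlapped. It was positive under all alternatives in which it was tested, with an adjusted p above 0.05 in each. The lowest library rested on 16 fragments. Of the distinct 50-base stretches of Spic transcripts, 4.17% also occurred in transcripts of other genes.

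Hmox1 and Slc40a1, the haem and iron genes, both had small negative differences with all 6 libraries and small positive ones without B6.Sle1b replicate 1, none past the test. Hmox1 (chromosome 8, 75093621 to 75100589, plus strand) lay at 99.9, 43.6 and 42.2 in B6.Sle1b against 28.9, 55.1 and 76.7 in Sle1b.IFNγR-/-. The receptor-deficient libraries held both the lowest value and 2 values above B6.Sle1b replicates 2 and 3. Its difference was -0.19 (SE 0.43, 95% interval -1.12 to 0.73), and 0.21 (SE 0.38) without B6.Sle1b replicate 1. Slc40a1 (chromosome 1, 45908068 to 45926523, minus strand) lay at 120, 68.2 and 57.2 in B6.Sle1b against 81.3, 71.9 and 65.9 in Sle1b.IFNγR-/-. Here the 3 receptor-deficient libraries were close together, within 1.23-fold, and all lay inside the range of B6.Sle1b. The difference was -0.094 (SE 0.33, 95% interval -0.80 to 0.61), and 0.22 (SE 0.30) without B6.Sle1b replicate 1.

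Cd163 (chromosome 6, 124304656 to 124330527, plus strand), the receptor that takes up haemoglobin bound to haptoglobin, lay at 25.5, 23.0 and 32.8 in B6.Sle1b against 35.0, 40.5 and 29.9 in Sle1b.IFNγR-/-. It was the 1 gene of the 10 for which B6.Sle1b replicate 1 was lower than the mean of replicates 2 and 3, at 0.913 times that mean. The groups overlapped through B6.Sle1b replicate 3 and Sle1b.IFNγR-/- replicate 3. The difference was 0.37 (SE 0.34, 95% interval -0.38 to 1.11) and, without B6.Sle1b replicate 1, 0.33 (SE 0.39).

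Vcam1 (chromosome 3, 116109949 to 116129688, minus strand), an adhesion molecule that holds leukocytes expressing its integrin partner and marks red pulp macrophages, had the most fragments of the 10 genes and the widest spread. It was measured at 563.5, 72.3 and 140 in B6.Sle1b against 140, 201 and 219 in Sle1b.IFNγR-/-. B6.Sle1b replicate 1 was 5.32 times the mean of replicates 2 and 3 of its own group. With all 6 libraries the difference was 0.036 (SE 0.55, 95% interval -1.15 to 1.22). Without that library it was 0.86 (SE 0.28, unadjusted p = 0.0057, limma adjusted p = 0.993). The groups were then separate, but by a small margin, as B6.Sle1b replicate 3 lay at 139.7 and Sle1b.IFNγR-/- replicate 1 at 139.9. Stromal and endothelial cells also make Vcam1. The median log2 level of stromal markers was 1.02, -0.32 and 0.22 in B6.Sle1b replicates 1 to 3 and -0.10 to 0.15 in Sle1b.IFNγR-/-, and that of endothelial markers was 0.28, -0.53 and 0.32, and -0.14 to 0.094. Of 17 stromal markers 11 were tested, with 7 negative and 4 positive differences, 1 was listed at 0 in all libraries, and their summed level was 509 to 773 in B6.Sle1b against 456 to 577 in Sle1b.IFNγR-/-. Of 13 endothelial markers 9 were tested, with 5 negative and 4 positive differences, none was at 0 throughout, and the sums were 457 to 614 against 475 to 558. Their part in the Vcam1 values was not tested. An antisense gene overlaps Vcam1 in the annotation, and the strand setting of the counts is not given.

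**Figure D2:**
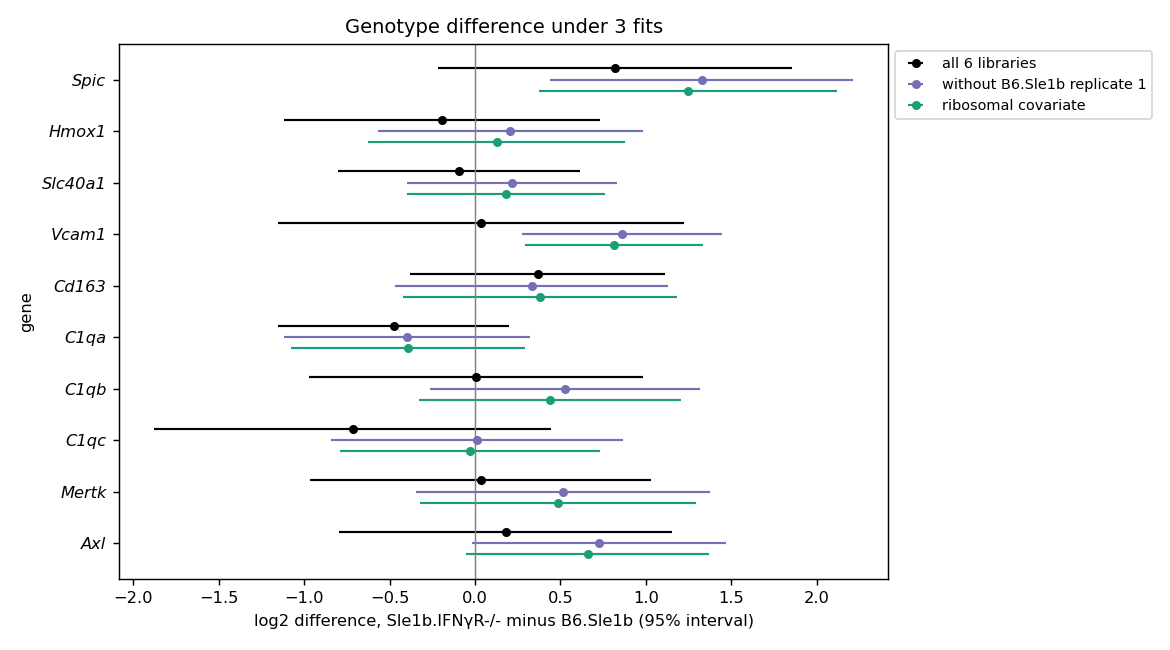
Log2 difference, Sle1b.IFNγR-/- minus B6.Sle1b, with 95% intervals for each gene from limma fits of all 6 libraries, without B6.Sle1b replicate 1, and with the ribosomal protein level as a covariate. All 10 intervals of the fit of 6 libraries cross 0. Those of Spic and Vcam1 lie above 0 in the other fits, at 0.44 to 2.21 and 0.28 to 1.45 without B6.Sle1b replicate 1. The limma adjusted p was 0.993 for both there. The other fits are nearly the same comparison, because the ribosomal protein level sets that library apart.

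The 3 genes for C1q lie side by side on the minus strand of chromosome 4: C1qb at 136880129 to 136886187, C1qc at 136889804 to 136893065 and C1qa at 136895917 to 136898803. Each encodes 1 of the chains that assemble into C1q. None of their 50-base stretches occurred in transcripts of another gene, so reads of that length would not be shared among the chains. As neighbouring genes whose values could be compared within a library, the promoters of C1qb and C1qc are shown, taken from RefSeq on GRCm38.p6. Bases before the transcript start and outside annotated exons are printed 5′ to 3′ on the gene's strand, with motif matches in capitals. The C1qb sequence spans chr4:136886201-136886450 and the C1qc sequence chr4:136893066-136893164.
C1qb: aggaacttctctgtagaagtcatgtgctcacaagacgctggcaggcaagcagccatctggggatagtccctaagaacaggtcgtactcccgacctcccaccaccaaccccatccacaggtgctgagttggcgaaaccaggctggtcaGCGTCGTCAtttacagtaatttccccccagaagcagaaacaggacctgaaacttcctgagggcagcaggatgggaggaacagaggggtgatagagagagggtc
C1qc: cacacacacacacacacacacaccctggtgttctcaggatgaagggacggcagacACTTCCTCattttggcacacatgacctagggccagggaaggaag
The capitals in C1qc mark GAGGAAGT, a core that PU.1 and Spi-C bind, read on the other strand. Those in C1qb mark TGACNNNGC, the core of the antioxidant response element, also on the other strand. On either strand, GAGGAAGT is held by 3.20% of the 32851 promoter windows in the table, of 250 bases before to 50 after the start, and TGACNNNGC by 12.4%. The interferon-γ activated site core TTCNNNGAA and the interferon-stimulated response core (GAAA, NN and GAAA in a row), held by 8.30% and 3.44% of windows, had no match in the windows of the 6 genes with an entry: Axl, C1qb, C1qc, Cd163, Mertk and Spic. The motifs do not overlap in these windows.

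C1qa was measured at 58.1, 48.5 and 49.7 in B6.Sle1b against 43.7, 36.0 and 32.3 in Sle1b.IFNγR-/-. The groups were separate, and the spread within B6.Sle1b was the smallest of the 10 genes, at 1.197-fold. The difference was -0.48 (SE 0.31, 95% interval -1.15 to 0.20), and -0.40 (SE 0.35) without B6.Sle1b replicate 1, where the groups were also separate. It was negative under all alternatives in which it was tested except scaling to the ribosomal protein genes, where it was 0.10. C1qb lay at 88.7, 39.5 and 21.6 in B6.Sle1b against 54.2, 38.2 and 37.1 in Sle1b.IFNγR-/-, with the whole second group inside the range of the first. Its difference was 0.0042 (SE 0.45, 95% interval -0.97 to 0.98), and 0.53 (SE 0.38) without B6.Sle1b replicate 1. C1qc lay at 133, 21.4 and 38.4 in B6.Sle1b against 35.9, 22.5 and 29.9 in Sle1b.IFNγR-/-. Its difference of -0.72 (SE 0.54, 95% interval -1.88 to 0.45) was the lowest of the 10 genes and rested on 1 library, since it was 0.010 (SE 0.42) without B6.Sle1b replicate 1.

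The share of each chain in the C1q total does not depend on scaling between libraries. C1qa held 20.7% of the C1q values in B6.Sle1b replicate 1 (95% Wilson interval 16.4% to 25.9%, 275 C1q fragments). In replicate 2 it held 44.4% (36.2% to 52.8%, 133 fragments) and in replicate 3 45.3% (36.6% to 54.3%, 117 fragments). These intervals cover counting error only, and that of replicate 1 did not meet those of the other 2. C1qc held 47.6%, 19.5% and 35.0% in the same libraries, and C1qb 31.6%, 36.1% and 19.7%. The C1q total was 280 scaled counts in B6.Sle1b replicate 1 against 109 and 110 in replicates 2 and 3. In Sle1b.IFNγR-/- the C1q total was 134, 96.6 and 99.4, and the shares were nearly even between libraries, with 32.5% to 37.2% for C1qa, 37.3% to 40.5% for C1qb and 23.3% to 30.1% for C1qc. Between genotypes, C1qb held 29.1% ± 8.498 in B6.Sle1b against 39.1% ± 1.62 in Sle1b.IFNγR-/- (SD, n = 3 each), without overlap. The two-sided exact permutation p was 0.1, the smallest that 3 against 3 libraries allow, and 0.3 after adjustment over the 3 chains, so it could not pass. C1qa held 36.8% ± 13.9 and 34.1% ± 2.66 (exact permutation p = 0.9), and C1qc 34.1% ± 14.1 and 26.7% ± 3.43 (exact permutation p = 0.5), both with overlap.

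**Figure D3:**
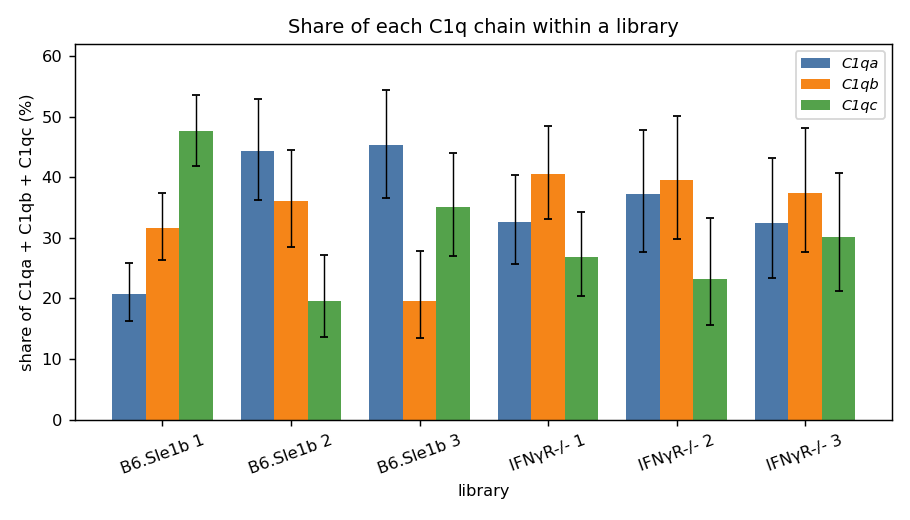
Share of C1qa, C1qb and C1qc in their sum within each library, in percent, with 95% Wilson intervals of the fragment counts. C1qc is the largest bar in B6.Sle1b replicate 1 (47.6%) and C1qa in replicates 2 and 3 (44.4% and 45.3%), while C1qb is the largest in all 3 Sle1b.IFNγR-/- libraries (37.3% to 40.5%).

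The TAM receptor genes had small differences with wide intervals. Mertk (chromosome 2, 128698956 to 128802894, plus strand) lay at 68.3, 17.3 and 34.7 in B6.Sle1b against 36.7, 25.8 and 46.7 in Sle1b.IFNγR-/-, with the second group inside the range of the first. The difference was 0.033 (SE 0.46, 95% interval -0.97 to 1.03), and 0.51 (SE 0.42) without B6.Sle1b replicate 1. A second locus named Mertk held 5.09, 1.64 and 3.75 against 14.9, 8.99 and 4.79 scaled counts. Summed over both loci, Mertk had a difference of 0.25 (SE 0.44). An antisense gene that overlaps Mertk was listed at 0 in 5 libraries and at 2.40 in the other. Axl (chromosome 7, 25757273 to 25788705, minus strand) lay at 104, 30.4 and 35.6 in B6.Sle1b against 36.7, 62.9 and 71.9 in Sle1b.IFNγR-/-. Replicates 2 and 3 of B6.Sle1b were lower than every Sle1b.IFNγR-/- library, and replicate 1 higher. The difference was 0.18 (SE 0.45, 95% interval -0.79 to 1.15), and 0.72 (SE 0.36, unadjusted p = 0.056, limma adjusted p = 0.993) without B6.Sle1b replicate 1.

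B6.Sle1b replicate 1 thus decided the sign or the size for several of the 10 genes. Without it, 9 of 10 differences were positive, with a median of 0.42 against 0.019 over the 18939 named loci then tested. Spic and Vcam1 had an unadjusted p under 0.05, as did 4.19% of named loci, and none of the 10 passed the adjusted threshold, as 0.0264% of named loci did. Spic, Vcam1 and Axl were then separate with Sle1b.IFNγR-/- higher, as were 10.2% of named loci, and C1qa with Sle1b.IFNγR-/- lower, as were 8.76%. Without B6.Sle1b replicate 2, the library of lowest ribosomal protein level in its group, 8 of 10 differences were negative, with a median of -0.28 against -0.18 over all named loci. The lowest was that of C1qc, at -1.28 (SE 0.45, limma unadjusted p = 0.0091, adjusted p = 0.376). With all 6 libraries and the ribosomal protein level as a covariate, the values were close to those without B6.Sle1b replicate 1. That level was 1.61 (log2) in B6.Sle1b replicate 1 and -0.47 to -0.022 in the others. The covariate thus nearly takes that library out of the comparison, so the likeness is built in and is no separate support. Spic was then at 1.25 (SE 0.42, limma adjusted p = 0.899) and Vcam1 at 0.81 (SE 0.25, limma adjusted p = 0.799), and 8 of 10 differences were positive, with a median of 0.41 against 0.011 over all named loci. Of the 10 genes these 2 had an unadjusted p under 0.05, as did 5.14% of named loci. Of the named loci 0.0364% passed the adjusted threshold in that fit and none was among the 10 genes.

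**Figure D4:**
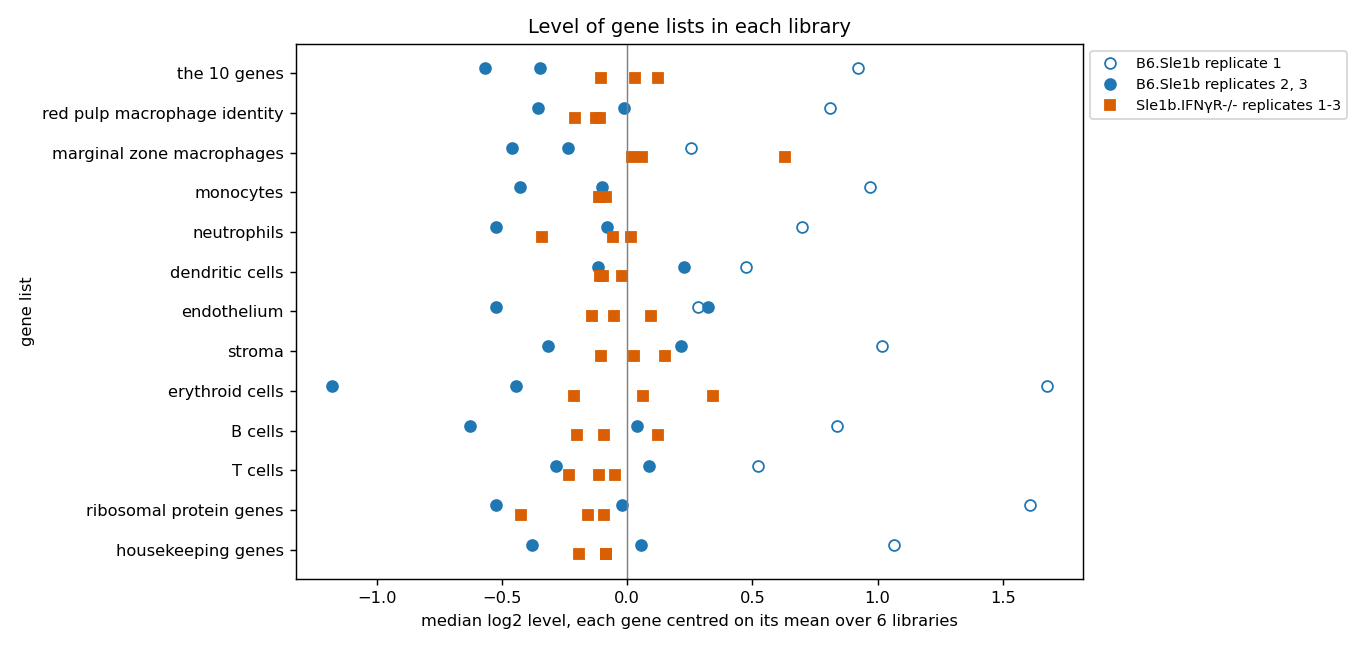
Median log2 level of each gene list in each library, with every gene centred on its mean over 6 libraries. The 10 genes lie at 0.92 in B6.Sle1b replicate 1 (open circle), at -0.57 and -0.35 in replicates 2 and 3 (filled circles) and between -0.11 and 0.12 in Sle1b.IFNγR-/- (squares). Most other lists are also highest in B6.Sle1b replicate 1, the exceptions being endothelium and marginal zone macrophages.

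Ratios between the genes within a library were compared as well, on the log2(value + 1) scale. Of the 45 pairs of the 10 genes, 4 (8.89%) had ratios that did not overlap between genotypes, against 9.19% of all pairs of named loci tested. The Spic to C1qc ratio was -1.49, -0.36 and -1.30 in B6.Sle1b against 0.74, 0.13 and 0.59 in Sle1b.IFNγR-/-. The other pairs were Spic to Mertk and Cd163 to C1qa, with higher ratios in Sle1b.IFNγR-/-, and C1qc to Mertk, with lower ratios there. Each had the smallest two-sided exact permutation p possible, 0.1. A share near that of all pairs gives no result about these genes as a set.

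Per kilobase of annotated exon and averaged over all 6 libraries, C1qa and C1qb had the highest mean levels of the 10, at 43.0 and 42.8 scaled counts per kilobase, followed by Hmox1 at 33.0, Vcam1 at 25.1 and C1qc at 24.3. Axl had 11.3, Spic 9.06, Mertk 8.82, Slc40a1 8.61 and Cd163 5.70. Every neighbouring pair in that order overlapped over the 6 libraries; Cd163, for example, ranged from 4.22 to 7.41 and Slc40a1 from 6.35 to 13.4. B6.Sle1b replicate 1 raised several of these means, with 81.5 for C1qb, 69.1 for C1qc and 63.5 for Vcam1. In Sle1b.IFNγR-/-, C1qb lay above C1qa in each library, at 49.8, 35.1 and 34.1 against 42.0, 34.6 and 31.1, and C1qc lay between 11.6 and 18.6.

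Other genes of the same pathways gave no calls either. Among iron and haem genes 33 of 39 matched were tested, with 23 negative and 10 positive differences, 0 past the adjusted threshold and a median of -0.23, or 0.082 without B6.Sle1b replicate 1. The smallest p belonged to the ferritin heavy chain gene Fth1 (395, 54.3 and 68.4 against 76.1, 43.8 and 14.4 scaled counts), which has processed copies that can share its reads. Next were Slc11a1, which moves iron out of phagosomes (45.9, 26.3 and 41.2 against 22.7, 13.5 and 23.96, without overlap), and the biliverdin reductase gene Blvrb (45.9, 4.11 and 10.3 against 2.62, 2.25 and 2.40, without overlap, the second group at 3 fragments or fewer in each library). Blvrb reached the mean needed for the test only through B6.Sle1b replicate 1 and was not tested without it. Among complement genes 30 of 35 were tested, with 20 negative and 10 positive differences and a median of -0.17, or 0.014 without B6.Sle1b replicate 1. Serping1, the inhibitor of the C1 proteases that act with C1q, lay at 77.99 ± 19.9 in B6.Sle1b against 45.1 ± 13.6 in Sle1b.IFNγR-/- (SD, n = 3 each), a difference of -0.79 (SE 0.34), or -0.61 without B6.Sle1b replicate 1. The complement receptor gene Cr2, also a B cell gene, lay at 57.2 ± 23.6 and 99.3 ± 16.8, a difference of 0.87 (SE 0.36), or 1.02 without that library. Both were without overlap and had a limma adjusted p of 0.99976. The chaperone gene Calr, whose product also binds C1q at the cell surface, lay at 65.6 ± 56.4 and 24.7 ± 3.76, with overlap.

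Of the genes for clearance of dying cells 32 of 41 were tested, with 19 negative and 13 positive differences, 0 calls and a median of -0.11, or 0.058 without B6.Sle1b replicate 1. The 3 of smallest p were Dock2, which activates Rac (203 ± 119 against 104 ± 18.3), the integrin gene Itgav (69.2 ± 20.4 against 44.1 ± 18.5) and the scavenger receptor gene Scarb1 (35.3 ± 15.5 against 22.0 ± 7.70), all with overlap. Of the 30 tested genes of red pulp macrophage identity 25 had negative and 5 positive differences, 0 called, with a median of -0.34. Without B6.Sle1b replicate 1 that median was -0.012, against 0.42 for the 10 genes in the same fit. Among those of smallest p were the lysosomal gene Cd68 (55.5 ± 37.0 against 24.8 ± 3.21) and the transcription factor gene Irf4 (108 ± 102 against 42.1 ± 6.38), and both overlapped between genotypes.

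The patterns over the 6 libraries were compared by the root mean square difference of centred log2 values, over 13227 named loci. Closest to the mean pattern of the C1q chains were Scp2, a sterol carrier gene, at 0.040, Clptm1 at 0.074 and the kinase gene Pak3 at 0.080, against a median of 0.58 over all loci compared. Among the other 7 genes Slc40a1 was closest to it, at 0.23, and Spic farthest, at 0.67. The chains themselves differed from one another and lay farther from their mean than Slc40a1, at 0.37 (C1qa), 0.33 (C1qb) and 0.41 (C1qc). Closeness to that mean is thus not closeness to any single chain. Closest to Spic were Rps26, which belongs to the ribosomal protein genes, at 0.19, the splicing factor gene Hnrnph3 at 0.21 and Nlrp4f at 0.22, and of the 10 genes C1qb was closest, at 0.54. With 6 libraries close matches arise among so many loci, and they are given as a description.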

How the data were processed

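RNA of 6 spleen samples was made into libraries with an Ovation RNA-seq amplification kit, per the labels' protocols. CASAVA, TopHat2 2.0.9, Cufflinks 2.2.1 and GRCm38 are named, per the submitters' processing notes; for the annotation, the strand setting and the treatment of reads with several positions, the answer is not given in the sources used here. Per locus, the authors deposited a signal, namely fragment counts on a quartile scale, which the file headers and title show. All 1530481 rows were collapsed to 426574 loci. Between 99.79% and 99.8% of the positive values of a library were whole multiples (within 0.01) of a single step, which gave fragments; the rest kept reads from being recovered, so tests for counts, planned in case reads could be recovered, were not run. Another 18 columns of variances and 6 of status were not used.

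Loci with a gene name and a mean no lower than 10 were tested on log2(value + 1) by limma 3.58.1 (R 4.3.3) with an intensity trend, genotype as the only term and Benjamini-Hochberg adjustment over 19227 loci; an adjusted p under 0.05 was the threshold. The procedure was tested on simulated data. Shares and ratios were compared by exact permutation tests (scipy 1.17.1, python 3.11.15, pandas 2.3.3, numpy 2.4.6, matplotlib 3.10.9). The 10 genes and all lists were chosen with earlier results of these data known; of 303 list entries 297 matched a locus. Genes named besides the 10 were the receptor genes, the 3 of smallest p in each of 4 related lists (1 of them is not reported here), and the 3 loci nearest in pattern to C1q and to Spic, predicted genes left out. Adgre1, Csf1r and Spi1 were added as genes linked to macrophages. The marker genes of marginal zone macrophages and erythroid cells named in the closing section were added after their values were seen. Coordinates and exon lengths came from GENCODE mouse release M21 and promoters from RefSeq, both on GRCm38. Proteins were not used here. Same-numbered replicates did not deviate together (correlations of 0.012, -0.027 and -0.011), so no pairing was assumed.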

Additional observations from a re-analysis of the deposited data

How the results depend on the processing

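Of the 10 genes none passed under any alternative but 1. With the replicate block and the ribosomal covariate together Vcam1 had a log2 difference of 1.02 (limma adjusted p = 0.041). Thus 1 of the 10 genes and 36 of 19227 named loci (0.187%) passed. That fit left almost no residual degrees of freedom per gene, so its p-values rest mostly on the variance that limma takes from other loci. The labels give both groups replicate numbers 1 to 3 and do not say what a number marks. Same-numbered libraries did not deviate together, a check that cannot exclude a shared litter or batch. With the replicate block alone 0 of the 10 and 0 named loci passed, and 567 loci had an unadjusted limma p under 0.05 (596 without it). Spic kept 0.82 in that fit (limma adjusted p = 0.99977). Named loci passing numbered 7 with the ribosomal covariate, 10 with the housekeeping covariate and 6 among the 152350 loci, named or not, of mean 10 or more, and from 0 to 5 on leaving out 1 library at a time (5 each without B6.Sle1b replicate 1 and without replicate 2). The median of the 10 genes was 0.60 when scaled to ribosomal protein genes, where the median of all named loci was 0.49 instead of -0.083. When single libraries were left out it ranged from -0.28 to 0.42. Signs changed for Hmox1 (0.39 when scaled to ribosomal protein genes, 0.13 and 0.11 with the ribosomal and housekeeping covariates, 0.45 with block and covariate), for Slc40a1 (0.49, 0.18, 0.15 and 0.099 in the same order), for C1qa (0.10 when scaled to ribosomal protein genes) and, with a pseudocount of 10, for C1qb (-0.026) and Mertk (-0.0018). The cause was not tested. With single libraries left out, differences ranged from -0.15 to 0.72 for Axl, -0.59 to -0.38 for C1qa, -0.47 to 0.53 for C1qb, -1.28 to 0.010 for C1qc, 0.26 to 0.51 for Cd163, -0.50 to 0.21 for Hmox1, -0.45 to 0.51 for Mertk, -0.31 to 0.22 for Slc40a1, 0.53 to 1.33 for Spic and -0.61 to 0.86 for Vcam1. Differences in C1q share ranged from -10.7 to 1.60 percentage points for C1qa, 5.27 to 13.5 for C1qb and -14.6 to -0.57 for C1qc. An alternative chosen after seeing the data, the ribosomal covariate without B6.Sle1b replicate 1, gave 7 named loci, 0.23 for Hmox1, 0.22 for Slc40a1, 0.55 for C1qb, 0.73 for Axl, 1.34 for Spic and a median of 0.40. A minimum mean of 50 left 4 of the 10 genes to test. The intervals show what 3 libraries a group can resolve: for Spic the 95% interval ran from -0.22 to 1.85 on the log2 scale, so neither no difference nor one near 1.85 is outside it.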

Other observations

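Markers of macrophages outside the red pulp gave the following values. Siglec1, the sialoadhesin of marginal metallophilic macrophages, lay at 52.0, 49.3 and 22.5 scaled counts in B6.Sle1b against 41.1, 50.6 and 61.1 in Sle1b.IFNγR-/-. The marginal zone scavenger receptor gene Marco lay at 31.6, 5.75 and 16.9 and at 14.9, 34.8 and 38.3. The lectin gene Cd209b lay at 15.3, 9.04 and 7.4997 and at 14.9, 11.2 and 22.8. All 3 overlapped between genotypes, with log2 differences of 0.37, 0.84 and 0.58 and a limma adjusted p of 0.99976 each. Without B6.Sle1b replicate 1 these differences were 0.58, 1.36 and 0.85. Of the 4 markers tested 3 had positive differences. The other, Cd209a, lay at 15.3, 12.3 and 17.8 against 21.0, 7.87 and 7.19. Its difference was -0.45, or -0.44 without B6.Sle1b replicate 1. Nr1h3 and Cd209d were too low to be tested, and Nr1h3 had means of 8.95 in B6.Sle1b and 3.81 in Sle1b.IFNγR-/-.

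Erythroid markers, the source of the haem that red pulp macrophages process, had 10 positive and 7 negative differences among 17 tested, with a median of 0.11, or 0.98 without B6.Sle1b replicate 1. The erythrocyte membrane transporter gene Slc4a1 lay at 578, 51.0 and 124 in B6.Sle1b against 228, 189 and 146 in Sle1b.IFNγR-/-. The haemoglobin gene Hba-a1 lay at 514, 46.0 and 106 and at 196, 160 and 126; its near-identical copy Hba-a2 can share its reads. As with Vcam1 and Axl, in both genes B6.Sle1b replicate 1 was above and replicates 2 and 3 below every Sle1b.IFNγR-/- library. Hba-a2 and Hbb-bs had the same order. It did not hold for all erythroid markers: Gata1, Hbb-bt and Car2 lacked it, with log2 differences of -0.37, -0.32 and -0.41. Whether the levels of the erythroid markers and of the macrophage genes depend on each other was not tested.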
